A study of Mus musculus with 6 samples.

Results

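The white adipocyte differentiation genes described here are 10 genes that mark the step from a committed precursor to a lipid-storing white fat cell: Pparg, Cebpa, Plin1, Plin4, Cidec, Adipoq, Lep, Cfd, Acvr1c and Car3. They were chosen by gene symbol, and all 10 were found among the 19131 genes of the files. Gene numbers and positions below are those of GRCm38.p6. The samples are skin of mice at embryonic day 17.5 on the C57BL/6N background, with 3 libraries labelled Tie1 knockout (Tie1ECDKO) and 3 labelled control (Tie1ECDWT). The labels do not say which part of Tie1 was deleted, in which cells, what the letters ECD stand for, from which part of the body the skin came, or whether the libraries of a group are separate embryos or litters. The spread behind the p-values is that between these samples, which may be technical. TIE1 is a receptor tyrosine kinase of endothelial cells, and the series addresses its role in vessel sprouting and vein assembly.

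White fat cells arise from mesenchymal precursors of the dermis and subcutis when the nuclear receptor PPARG and the transcription factor C/EBPA switch each other on and together drive the genes of lipid storage. Maturing cells then coat their lipid droplets with perilipins, fuse small droplets into a large one and release hormones such as adiponectin and leptin. In mouse skin this fat layer forms late in gestation.

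The libraries held 19826856 to 20591164 estimated reads, so that 3 reads correspond to 0.147 to 0.155 CPM, the usual unit of reads scaled to library size. Tie1 itself was at 4.33, 2.63 and 2.26 CPM in knockout libraries 1, 2 and 3, against 58.6, 50.7 and 60.0 CPM in control libraries 1, 2 and 3, which fits the labels. Skin markers were abundant in every library, with summed levels of 6 epidermal marker genes between 16751 and 34088 CPM. Knockout 1 and control 1 stood apart from the others in skin composition, since 10 hair follicle markers summed to 196 CPM in knockout 1 and 189 CPM in control 1, against 328 to 440 CPM in the other 4 libraries. Results are therefore also given without these libraries.

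The sequences just before the transcription starts of 5 of the genes are shown because C/EBP factors and PPARG, whose own genes belong to the set, bind short motifs near such starts. RefSeq (GRCm38.p6) listed 13 starts for 9 of the 10 genes, among them 3 for Pparg, and the 250 bases before each were searched on both strands. The windows printed are chr7:79732904-79733026 (minus strand) for Plin1, chr6:29059971-29060219 (plus strand) for Lep, chr6:115421816-115422065 (plus strand) for the most downstream start of Pparg, chr16:23146286-23146535 (plus strand) for Adipoq and chr7:35119043-35119292 (plus strand) for Cebpa. Each run stops before the first base that lies in a GENCODE vM21 exon of the gene, and capitals mark motif matches. The Pparg window lies inside the gene, between exons of the transcripts from its upstream starts. The last base printed for Plin1 is the base at which RefSeq begins the gene.
Plin1: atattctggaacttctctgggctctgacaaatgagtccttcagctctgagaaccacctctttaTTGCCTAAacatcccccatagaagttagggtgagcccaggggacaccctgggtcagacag
Lep: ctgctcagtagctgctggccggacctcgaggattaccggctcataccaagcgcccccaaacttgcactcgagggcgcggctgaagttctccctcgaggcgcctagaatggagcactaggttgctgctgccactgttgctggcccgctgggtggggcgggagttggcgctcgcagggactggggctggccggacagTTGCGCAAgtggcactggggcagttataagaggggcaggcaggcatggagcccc
Pparg: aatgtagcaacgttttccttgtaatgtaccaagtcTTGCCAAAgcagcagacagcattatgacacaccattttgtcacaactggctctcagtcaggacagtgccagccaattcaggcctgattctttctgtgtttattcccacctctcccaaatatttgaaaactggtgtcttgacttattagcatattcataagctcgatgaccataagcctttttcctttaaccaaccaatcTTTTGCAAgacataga
Adipoq: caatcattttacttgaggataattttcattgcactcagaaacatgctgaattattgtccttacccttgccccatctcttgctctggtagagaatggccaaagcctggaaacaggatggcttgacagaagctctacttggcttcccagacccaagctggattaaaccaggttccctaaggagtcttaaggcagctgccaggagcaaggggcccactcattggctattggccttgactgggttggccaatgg
Cebpa: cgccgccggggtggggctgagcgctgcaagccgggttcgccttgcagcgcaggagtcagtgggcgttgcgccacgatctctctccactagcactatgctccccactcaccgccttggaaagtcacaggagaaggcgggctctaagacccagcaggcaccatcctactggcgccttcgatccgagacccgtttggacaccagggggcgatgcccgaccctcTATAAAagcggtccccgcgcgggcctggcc
The C/EBP motif TTGCNNAA was present in 4 of the 13 windows and in 9.56% of the 32851 windows of the same length in the table. The 4 windows belong to Lep, Plin1, Cidec and the most downstream start of Pparg. In Lep it is the full palindrome TTGCGCAA, from −55 to −48 relative to the start. Plin1 had TTGCCTAA from −187 to −180 and a further match, TTGCCCAA, from −58 to −51, in a stretch that an annotated exon covers and that is not printed. The Plin1 positions are counted from the listed start at chr7:79732776, which lies inside the gene, downstream of the base at which RefSeq begins it. The Pparg window had TTGCCAAA from −215 to −208 and a match on the opposite strand, read here as TTTTGCAA, from −16 to −9. The Adipoq window had none of the motifs searched, and the capitals in Cebpa mark TATAAA, which 2 of the 13 windows and 12.4% of all windows had. The sequence AGGTCA, to which nuclear receptors such as PPARG bind, occurred in 2 of the 13 windows, both at other starts of Pparg, and in 14.0% of all windows. The element AGGTCANAGGTCA, made of the shorter motif and a repeat of it after 1 base, occurred in 0 of the 13 and in 0.0335% of all windows. These matches describe letters, not bound sites.

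Plin1, which encodes a coat protein of the lipid droplet, fell in knockout skin, with summed reads 9.41-fold lower than in control skin. The hormone genes Adipoq and Lep, the receptor gene Acvr1c and the regulator gene Pparg had every knockout library below every control library but did not pass the test or had too few reads for it. The regulator gene Cebpa averaged 182 ± 21.5 CPM in the knockout and 184 ± 23.5 CPM in the controls (SD, n = 3 each). Plin1 was the 1 of the 10 genes that passed the test, lower in the knockout, where 0.0732% of all 15035 genes tested were called lower, 0.0865% higher and 0.16% in either direction. At an unadjusted p under 0.05, 4 of the 10 were lower and 0 higher, where 3.35% of all genes tested were lower and 7.42% passed in either direction. DESeq2 called 4 of the 10, all lower, where 0.537% of its 16756 genes were called lower and 1.24% in either direction. Limma-voom called 0 of the 10, where it called 0.0266% of all genes tested lower and 0.0998% in either direction. The test was edgeR's quasi-likelihood test with Benjamini-Hochberg adjustment over all genes tested, and a gene is called at an adjusted p under 0.05. In bulk skin, fewer fat cells and less RNA per fat cell cannot be told apart. Of the 10 genes, 7 had enough reads for the test, and Cidec, Lep and Cfd did not. Plin1, Adipoq and Acvr1c reached the read minimum in all 3 control libraries but not in all 3 knockout libraries, so they entered the test through the controls, and counts over the tested genes are given as description.

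**Figure D1:**
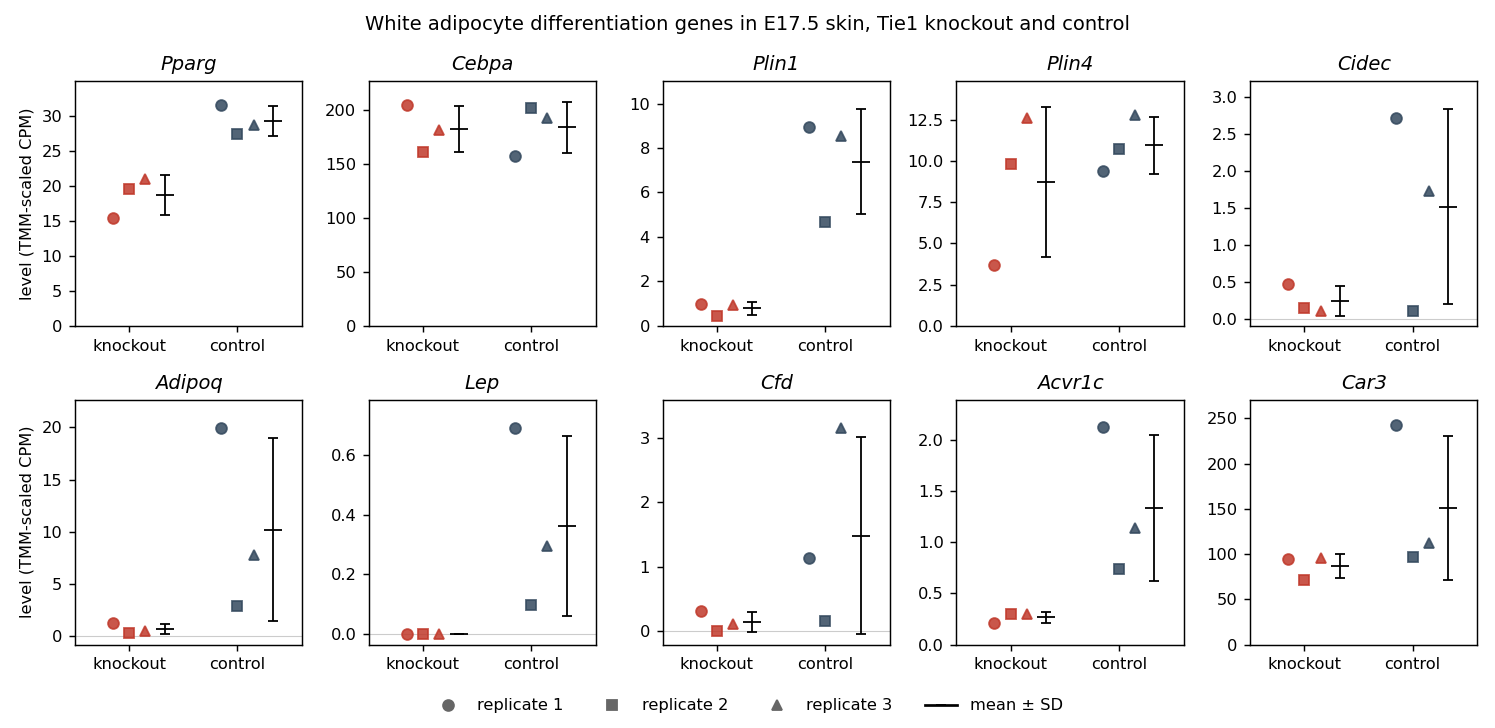
Level of each of the 10 genes (vertical axes, TMM-scaled CPM, linear) in the knockout libraries (red, left) and the control libraries (dark, right), with a marker shape per replicate number and the mean ± SD of 3 libraries beside them. All 3 knockout points lie below all 3 control points for Plin1, Adipoq, Acvr1c, Lep, Pparg and Car3, and the groups overlap for Cebpa, Plin4, Cidec and Cfd.

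All 3 knockout libraries stood below all 3 control libraries for 6 of the 10 genes, 5 of them among the 7 tested, where 6.78% of all genes tested were arranged in this way. Of these 5, Plin1, Adipoq and Acvr1c entered the test through the controls. The 10 genes were also chosen with earlier results of these data known, so the count is a description only. None of the 10 genes had all its knockout libraries above all its controls, where 7.03% of all genes tested did. The spread within the controls was wide and ran the same way in most of the genes. Control 1 was the highest control for 7 of the 10 genes and control 2 the lowest for 8. Control 3 was the highest for Plin4 and Cfd, and Cebpa ran against the others, with its highest control value in control 2. In the knockout, library 1 was the highest for 5 genes and library 2 the lowest for 5.

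Pparg (gene 19016, chr6:115360879-115490404) encodes the nuclear receptor that is required for fat cell formation. It was at 15.4, 19.6 and 20.9 CPM in the knockout libraries, against 31.5, 27.3 and 28.7 CPM in the controls. The groups did not overlap, and the spread within each was small for this gene set. EdgeR put the log2 fold change at −0.65 (SE 0.13), which did not pass edgeR's test (adjusted p = 0.156) and was called by DESeq2 (adjusted p = 0.00444). Without knockout 1 and control 1 it was −0.47. The files give 1 value for the whole gene, so the transcript from the most downstream start, that of the fat-enriched form PPARG2, cannot be separated from the others, and Pparg is also used by other skin cells such as sebocytes and macrophages.

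Cebpa (gene 12606, chr7:35119293-35121928) encodes the transcription factor that maintains PPARG in fat cells, and keratinocytes of the epidermis make it as well. It was at 204, 161 and 181 CPM in the knockout libraries and at 157, 202 and 192 CPM in the controls. The groups overlapped, with the highest value in knockout 1 and the lowest in control 1. In replicates 2 and 3 the knockout values (161 and 181 CPM) lay below the control values (202 and 192 CPM). EdgeR put the log2 fold change at −0.014 (SE 0.12, adjusted p = 0.987), and its sign changed when knockout 2, control 2 or control 3 was left out. Leaving out knockout 1 and control 1 together moved the estimate to −0.20 with an SE of 0.077, and edgeR did not call it (adjusted p = 0.351).

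Plin1 (gene 103968, chr7:79721164-79732904) encodes perilipin 1, which coats the lipid droplet of white fat cells and controls access of lipases to it. It had 19, 9 and 19 reads in the knockout libraries, against 181, 94 and 173 reads in the controls, or 0.979, 0.446 and 0.932 CPM against 8.93, 4.66 and 8.54 CPM. The lowest control was well above the highest knockout library. EdgeR put the log2 fold change of Plin1, which fell, at −3.22 (SE 0.37, adjusted p = 0.0353), and the 95% exact interval of its 9.41-fold lower reads was 6.96 to 13.0, for counting error only. The call was kept without knockout 1 and control 1 together (log2 fold change −3.25, edgeR adjusted p = 0.0293). It was lost when any 1 library was left out, with log2 fold changes between −3.47 and −2.94 and edgeR adjusted p between 0.0759 and 0.203.

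Cidec (gene 14311, chr6:113424634-113435760) encodes a droplet protein, also named FSP27, that fuses small droplets into larger ones. It had 9, 3 and 2 reads in the knockout libraries, against 55, 2 and 35 reads in the controls. Control 2 was as low as the knockout libraries, so the groups overlapped. The summed reads were 6.49-fold lower in the knockout (95% exact interval 3.68 to 12.3, for counting error only). On the log2 scale the ratio was −2.70, and it was −1.97 without control 1, −3.62 without knockout 1 and −2.89 without both.

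Plin4 (gene 57435, chr17:56100587-56109948) encodes perilipin 4, which coats newly formed droplets and is found in muscle as well as fat. It was at 3.71, 9.82 and 12.6 CPM in the knockout libraries and at 9.37, 10.7 and 12.8 CPM in the controls. Only knockout 1 lay outside the range of the controls. EdgeR put the difference at −0.33 on the log2 scale (SE 0.41, adjusted p = 0.889), and it became 0.034 without knockout 1.

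Among the secreted proteins, Adipoq (gene 11450, chr16:23146536-23157968) encodes adiponectin, a hormone made by fat cells that raises insulin sensitivity. It had 24, 7 and 10 reads in the knockout libraries, against 404, 59 and 157 reads in the controls, or 1.24, 0.347 and 0.491 CPM against 19.9, 2.92 and 7.75 CPM. The groups did not overlap, and the highest control was 6.82 times the lowest. The log2 fold change of −3.88 (SE 0.88) did not pass edgeR's test (adjusted p = 0.308) and was called by DESeq2 (adjusted p = 0.00393). It was −2.95 without control 1, −4.58 without knockout 1 and −3.65 without both.

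Lep (gene 16846, chr6:29060221-29073876) encodes leptin, the hormone by which fat stores signal to the brain. It had no read in any of the 3 knockout libraries, against 14, 2 and 6 reads in the controls. With a floor of 3 reads over the whole knockout group, Lep was at least 7.24-fold lower in the knockout, a bound that leaves out the counting error of the 22 control reads. With that error included, the lower limit of the 95% exact interval was 5.41-fold. On the log2 scale the floor bound was −2.86, and it was −1.98 without control 1, −1.42 without knockout 1 and control 1, and −2.29 to −2.26 with 1 knockout library left out. Control 2, with 2 reads, could not be told from the floor at this depth.

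Cfd (gene 11537, chr10:79890853-79892655) encodes adipsin, the protease complement factor D, which fat cells secrete and which activates the alternative complement pathway. It had 6, 0 and 2 reads in the knockout libraries, against 23, 3 and 64 reads in the controls. The groups overlapped, since control 2 was below knockout 1. The summed reads were 11.1-fold lower in the knockout (95% exact interval 5.40 to 26.5, for counting error only). Here control 3, not control 1, carried most reads. On the log2 scale the ratio was −3.47, and it was −2.27 without control 3, −2.88 without knockout 2, −4.91 without knockout 1 and −5.07 without knockout 1 and control 1.

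Acvr1c (gene 269275, chr2:58267453-58357896) encodes ALK7, a type I receptor for activin B and GDF3 that restrains fat breakdown in white fat cells. It had 4, 6 and 6 reads in the knockout libraries, against 43, 15 and 23 reads in the controls. The knockout libraries were close together and all below the lowest control. EdgeR put the log2 fold change at −2.30 (SE 0.49), which did not pass edgeR's test (adjusted p = 0.218) and was called by DESeq2 (adjusted p = 0.0396). Without knockout 1 and control 1 it was −1.65.

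Car3 (gene 12350, chr3:14863538-14872381) encodes carbonic anhydrase III, an enzyme abundant in fat cells and also in skeletal muscle and liver. It was at 94.5, 71.6 and 95.3 CPM in the knockout libraries, against 242, 96.7 and 113 CPM in the controls. The groups were separated only narrowly, by the gap between knockout 3 and control 2, and control 1 was far above the rest. EdgeR put the difference at −0.79 on the log2 scale (SE 0.37, adjusted p = 0.694), at −0.27 without control 1 and at −0.33 without control 1 and knockout 1.

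**Figure D2:**
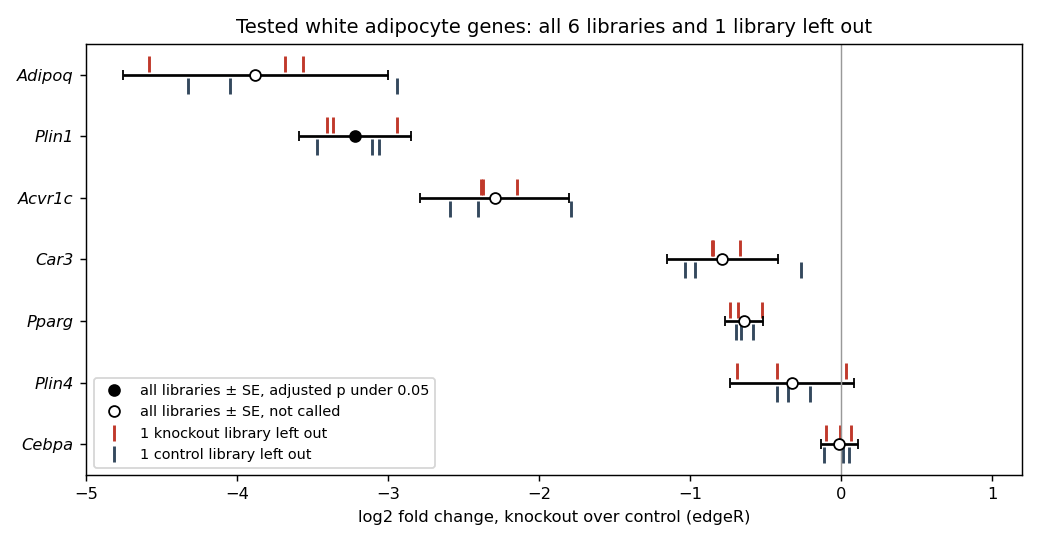
Log2 fold change of the 7 tested genes (horizontal axis, knockout over control, edgeR) from all 6 libraries with its standard error (circles, filled where the adjusted p is under 0.05), and the values with 1 knockout library (red ticks) or 1 control library (dark ticks) left out. Adipoq, Plin1 and Acvr1c reach no higher than −1.79 in any of these fits, Car3 moves to −0.27 without control 1, and Plin4 and Cebpa reach both sides of 0.

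Reads were also set against those of Pparg within each library. For every 100 Pparg reads there were 6.35, 2.28 and 4.46 Plin1 reads in the knockout libraries, against 28.3, 17.0 and 29.8 in the controls. For Adipoq the ratio was 8.03, 1.77 and 2.35 in the knockout libraries, against 63.2, 10.7 and 27.0 in the controls. Acvr1c gave 1.34, 1.52 and 1.41 in the knockout, against 6.73, 2.72 and 3.96 in the controls. In these 3 ratios the groups did not overlap and the knockout was lower. Lep had 0 in every knockout library, against 2.19, 0.362 and 1.03 in the controls. Cebpa was separated in the other direction, with 1325, 823 and 866 reads per 100 Pparg reads in the knockout libraries, against 499, 739 and 671 in the controls. The divisor Pparg was itself lower in every knockout library, which raises every such ratio in the knockout. The level of Cebpa itself overlapped between the groups. The ratios of Cidec and Cfd overlapped between the groups. The ratio of Car3 did so as well, with 366 to 613 reads per 100 Pparg reads in the knockout libraries and 354 to 768 in the controls. Plin4 also overlapped, at 24.1 to 60.3 in the knockout and 29.7 to 44.6 in the controls. The differences between genes were not tested, and the share of all genes that separate on this ratio was not measured.

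On a scale that divides the level by the merged exon length, the order of mean levels in control skin was Cebpa, Car3, Pparg, Adipoq, Plin4, Cfd, Plin1, Cidec, Acvr1c and Lep. In CPM per kilobase Cebpa had 69.1 ± 8.15 in the knockout and 69.8 ± 8.92 in the controls, and Pparg had 6.31 ± 0.971 in the knockout and 9.88 ± 0.724 in the controls (SD, n = 3 each). Adipoq had 0.501 ± 0.346 in the knockout and 7.39 ± 6.35 in the controls on this per-length scale, and Plin4 had 1.51 ± 0.788 in the knockout and 1.90 ± 0.298 in the controls. Adipoq thus stood above Plin4 in the controls and below it in the knockout. In the knockout the mean of Plin1 (0.169 ± 0.0635) stood above that of Cfd (0.147 ± 0.171), by less than the SD of either. Among neighbours in the controls, Car3 and Pparg, and Plin1 and Cidec, differed by more than the larger SD of the pair, and the other pairs of neighbours did not.

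Other genes of fat cells were read from 8 lists of 93 genes grouped by role. Of these, 92 were in the files and 88 were tested. By edgeR 1 fell and 0 rose, where 0.0732% of all genes tested were called lower. At an unadjusted p under 0.05, 16 were lower and 4 higher. Of all genes tested, 3.35% were lower at that p and 7.42% passed in either direction. DESeq2 called 4 of the 88 lower and 0 higher, where it called 0.537% of its genes lower, and limma-voom called none of the 88. The median log2 fold change over the 88 genes was −0.044, against 0.0038 over all genes tested.

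The gene that fell was Agt, angiotensinogen, which fat cells secrete along with liver and other tissues. It was at 9.54, 11.3 and 13.8 CPM in the knockout libraries, against 35.0, 26.2 and 35.0 CPM in the controls, and edgeR put the log2 fold change at −1.48 (SE 0.17, adjusted p = 0.0353). The groups did not overlap. The call was lost when any 1 library was left out, with log2 fold changes between −1.63 and −1.36 and edgeR adjusted p between 0.0711 and 0.282, and was kept without knockout 1 and control 1 together (−1.29, edgeR adjusted p = 0.0199). With limma-voom the adjusted p was 0.0550. Its list, named for other secreted proteins, held 9 genes, of which 7 were tested. In 5 of these 7 the groups did not overlap and the knockout was lower, as in 6.78% of all genes tested, and 5 were lower at an unadjusted p under 0.05, as were 3.35% of all genes tested. Both counts include Nnat, which is not a secreted protein. The list was written with earlier results of these data known, so the counts are a description only. Angptl4, an inhibitor of lipoprotein lipase, was at 17.6 ± 2.23 CPM in the knockout and 26.3 ± 3.57 CPM in the controls (SD, n = 3 each, edgeR adjusted p = 0.262, DESeq2 adjusted p = 0.0415). Nnat, a small membrane protein, stood at a log2 fold change of −0.38 and Rbp4, the retinol carrier, at −0.57, with edgeR adjusted p = 0.489 and 0.552. Itih5 stood at −0.17 (edgeR adjusted p = 0.603). Retn, which encodes the fat cell hormone resistin in mice, had too few reads for edgeR's test, with 0, 0 and 1 read in the knockout libraries against 31, 3 and 11 in the controls. Its ratio was 44.4-fold lower in the knockout (95% exact interval 7.58 to 1793, for counting error only), and DESeq2 called it (adjusted p = 0.0489).

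Of 18 tested genes of triglyceride storage and release, 0 were called by edgeR or limma-voom, 1 was called lower by DESeq2, and 3 were lower and 0 higher at an unadjusted p under 0.05, where 3.35% of all genes tested were lower. In 3 of the 18 the groups did not overlap and the knockout was lower, as in 6.78% of all genes tested. Their median log2 fold change was −0.041. The gene that DESeq2 called was Gpd1, glycerol-3-phosphate dehydrogenase, which supplies the backbone of triglycerides. It was at 10.8, 10.5 and 16.0 CPM in the knockout libraries, against 47.1, 18.1 and 26.0 CPM in the controls (log2 fold change −1.29, SE 0.38, edgeR adjusted p = 0.472). Fitm2, which helps droplets form, stood at −0.36 and Dgat1, the last enzyme of triglyceride synthesis, at −0.28, with edgeR adjusted p = 0.447 and 0.533. Mgll, monoglyceride lipase, stood at 0.22 (edgeR adjusted p = 0.683).

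In fatty acid synthesis, 10 genes were tested and 0 called by edgeR or limma-voom. DESeq2 called 1 lower, where it called 0.537% of its genes lower. At an unadjusted p under 0.05, 2 were lower and 0 higher, where 3.35% of all genes tested were lower. Thrsp, a lipogenic protein of fat and liver, was at 3.05 ± 0.378 CPM in the knockout and 5.86 ± 1.18 CPM in the controls (SD, n = 3 each, edgeR adjusted p = 0.218, DESeq2 adjusted p = 0.0308). Mlxipl, which encodes the glucose-sensing factor ChREBP, stood at −0.95 on the same log2 scale (SE 0.24, edgeR adjusted p = 0.322). The synthetic enzymes Acacb and Fasn stood at −0.27 and −0.15 (edgeR adjusted p = 0.685 and 0.821).

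The list named for fatty acid and glucose uptake also held the amino acid transporter gene Slc1a5. In this list 8 genes were tested and 0 were called by edgeR, DESeq2 or limma-voom. Of these, 2 were lower at an unadjusted p under 0.05, where 3.35% of all genes tested were lower. Fabp4, a fatty acid carrier of fat cells and of capillary endothelium, was at 102, 137 and 136 CPM in the knockout libraries, against 193, 149 and 180 CPM in the controls (log2 fold change −0.48, SE 0.14, edgeR adjusted p = 0.445). Cd36, the fatty acid translocase, stood at −0.35, Lpl, lipoprotein lipase, at −0.33, and the transporter gene Slc27a1 at −0.24, with edgeR adjusted p = 0.395, 0.747 and 0.846. These genes are used by other skin cells as well. Acsl1, an acyl-CoA synthetase, stood at −0.10 (edgeR adjusted p = 0.952) and was called lower, at −0.54, without knockout 1 and control 1 (edgeR adjusted p = 0.0485). The fit without these libraries called 139 of 15066 genes in either direction.

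Among 11 regulators that promote fat cell formation, 0 were called by edgeR, DESeq2 or limma-voom. At an unadjusted p under 0.05, where 7.42% of all genes tested passed in either direction, 1 was higher and 0 lower. That gene was Cebpd, an early factor of the program, at 22.3, 28.0 and 24.4 CPM in the knockout libraries against 19.8, 12.8 and 19.8 CPM in the controls (log2 fold change 0.51, SE 0.18, edgeR adjusted p = 0.565). Cebpb stood at 0.27 and Klf15 at 0.45, both adipogenic transcription factors, and Zfp423, a factor of committed precursors, at −0.25, with edgeR adjusted p = 0.725, 0.696 and 0.681. Among 10 regulators that hold back fat cell formation, 0 were called by edgeR, DESeq2 or limma-voom. At an unadjusted p under 0.05, where 3.35% of all genes tested were lower, 2 were lower and 0 higher, Klf2 and Gata2. Klf2 stood at −0.43 and Gata2 at −0.50, both also used by endothelium, and Hes1 at 0.23, with edgeR adjusted p = 0.533, 0.653 and 0.671. Foxo1 stood at −0.085 (edgeR adjusted p = 0.901).

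Of 10 progenitor markers, 0 were called by edgeR, DESeq2 or limma-voom. At an unadjusted p under 0.05, 2 were lower, where 3.35% of all genes tested were lower. Pi16, a marker of the early fibroblast-like precursors of the subcutis, was at 11.0, 7.24 and 4.27 CPM in the knockout libraries, against 78.8, 15.7 and 28.9 CPM in the controls (log2 fold change −2.46, SE 0.70, edgeR adjusted p = 0.455). Its controls stood in the same order as those of Adipoq, with control 1 highest and control 2 lowest. Dact2 stood at −0.78 and Cd34 at −0.43 (edgeR adjusted p = 0.521 and 0.674). Pdgfra, the receptor gene of the wider fibroblast and precursor lineage, was at 173 to 215 CPM in the knockout libraries and 177 to 183 CPM in the controls (edgeR adjusted p = 0.785).

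Of 14 tested receptors and partners, 0 were called by edgeR, DESeq2 or limma-voom. At an unadjusted p under 0.05, 3 were higher and 0 lower, where 7.42% of all genes tested passed in either direction. Cdh13, the cadherin that binds adiponectin and is made by endothelium, stood at a log2 fold change of 0.57 (SE 0.21), the insulin signalling genes Irs2 and Insr at 0.46 and 0.20, and the fat cell adrenergic receptor gene Adrb3 at −0.96, with edgeR adjusted p = 0.580, 0.539, 0.642 and 0.671. The brown fat markers (11 tested) and skeletal muscle markers (10 tested) had 0 calls by edgeR, DESeq2 or limma-voom and 0 at an unadjusted p under 0.05.

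**Figure D3:**
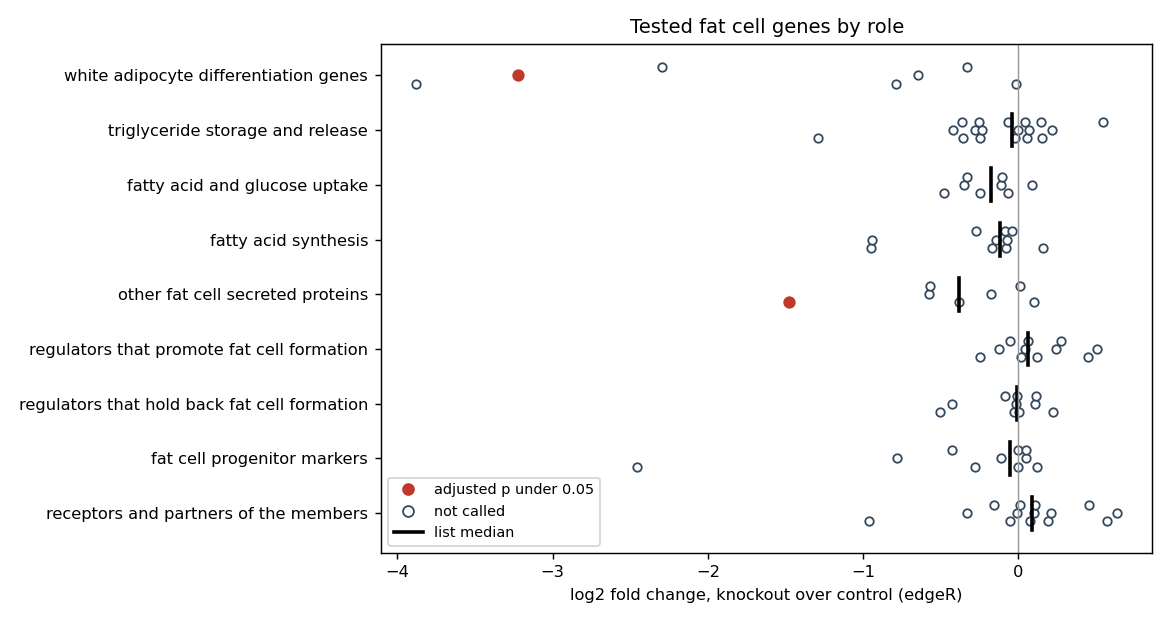
Log2 fold change of each tested gene (horizontal axis, knockout over control, edgeR) in the white adipocyte genes and in the 8 lists of other fat cell genes (rows), with filled red points for an adjusted p under 0.05 and black bars for the medians of the 8 lists. Plin1 and Agt are the called genes, and these medians lie between −0.38 and 0.088.

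The 12 genes whose pattern was most like the tested white adipocyte genes were found among 14235 genes by Pearson's r of log2 CPM over the 6 libraries with the mean standardised log2 CPM of the 7 tested genes. They were Tmem72, Fam167b, Rspry1, Cd74, Col28a1, Hira, Agt, Samhd1, 9130401M01Rik, Med18, Plscr1 and Ap3s2, with r between 0.985 and 0.996. Agt, already named for its fall, was the 1 that edgeR called. Cd74, the invariant chain of MHC class II, was at 9.06 CPM in the knockout and 17.6 CPM in the controls on average (edgeR adjusted p = 0.0547). Of the 7 genes behind the mean, Plin4 and Cebpa followed it least, at r = 0.47 and −0.068, against 0.76 to 0.98 for the others. With 6 libraries and this many genes such values of r are a description of likeness only.

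Markers of other cells and of body position were measured beside these genes. Brown fat markers summed to 78.3 to 83.9 CPM in the knockout libraries and 78.8 to 92.1 CPM in the controls, with the defining gene Ucp1 at 0.54 to 1.24 CPM in the knockout and 0.39 to 0.79 CPM in the controls. Skeletal muscle markers, which bear on Car3 and Plin4, summed to 9225 to 14865 CPM in the knockout libraries and 11265 to 11993 CPM in the controls, with knockout 1 the lowest of all. Liver markers, which bear on Car3, summed to 0.59 to 5.20 CPM in the knockout and 1.23 to 6.24 CPM in the controls, and Fgb was at 0 in 4 of the 6 libraries. Sebaceous gland markers, which bear on Pparg, summed to 153 to 244 CPM in the knockout and 143 to 221 CPM in the controls. This is a sum over genes that went both ways, and the fatty alcohol enzyme gene Far2 alone gave 170 CPM in knockout 1.

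The sum of the macrophage markers did separate the groups, at 479 to 566 CPM in the knockout libraries and 335 to 466 CPM in the controls. All 9 single genes had a log2 fold change above 0. In 1 of the 9 every knockout library stood above every control, as in 7.03% of all genes tested. Of 9 tested, 0 were called by edgeR or DESeq2. At an unadjusted p under 0.05, 2 were higher, where 7.42% of all genes tested passed in either direction. Without knockout 1 and control 1, edgeR called 1 of these 9 higher, Mrc1, where it called 139 of 15066 genes in either direction. Endothelial markers summed to 684 to 796 CPM in the knockout and 634 to 719 CPM in the controls, a sum over genes that went both ways. Of 9 tested, 0 were called by edgeR, and 1 was called lower by DESeq2 (Emcn, adjusted p = 0.00999), which called 0.537% of its genes lower. At an unadjusted p under 0.05, 3 were higher and 1 lower, where 7.42% of all genes tested passed in either direction. Summed levels of 8 posterior Hox genes, markers of body position, came to 59.7, 74.6 and 74.4 CPM in the knockout libraries, against 72.2, 44.7 and 37.7 CPM in the controls. Of the 7 that were tested, 0 were called by edgeR, DESeq2 or limma-voom. Without knockout 1 and control 1 edgeR called 2 of them higher, Hoxa10 and Hoxa11, where it called 139 of 15066 genes in either direction. The summed Hox level of control 1 lay inside the range of the knockout. Of the 7 tested, Hoxa11 was the 1 with every knockout library above every control, as in 7.03% of all genes tested. Hoxa11 was at 1.13, 1.83 and 1.37 CPM in the knockout libraries, against 0.592, 0.149 and 0.0494 CPM in the controls. With the Hox score as a covariate the log2 fold change was −3.26 for Plin1 (edgeR adjusted p = 0.198), −4.53 for Adipoq and −2.95 for Acvr1c, and Plin1 was no longer called. In that fit edgeR called 3 genes in all, against 24 without a covariate. With the brown fat score as a covariate Plin1 stood at −2.66 (edgeR adjusted p = 0.348), and 1 gene was called in all. With the skeletal muscle score Plin1 stood at −3.22 (edgeR adjusted p = 0.0824, 15 genes called in all). With the hair follicle score it stood at −3.26 and was called (edgeR adjusted p = 0.0214, 114 genes called in all). The part of these other cells and of body position in the fat cell results was otherwise not tested.

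**Figure D4:**
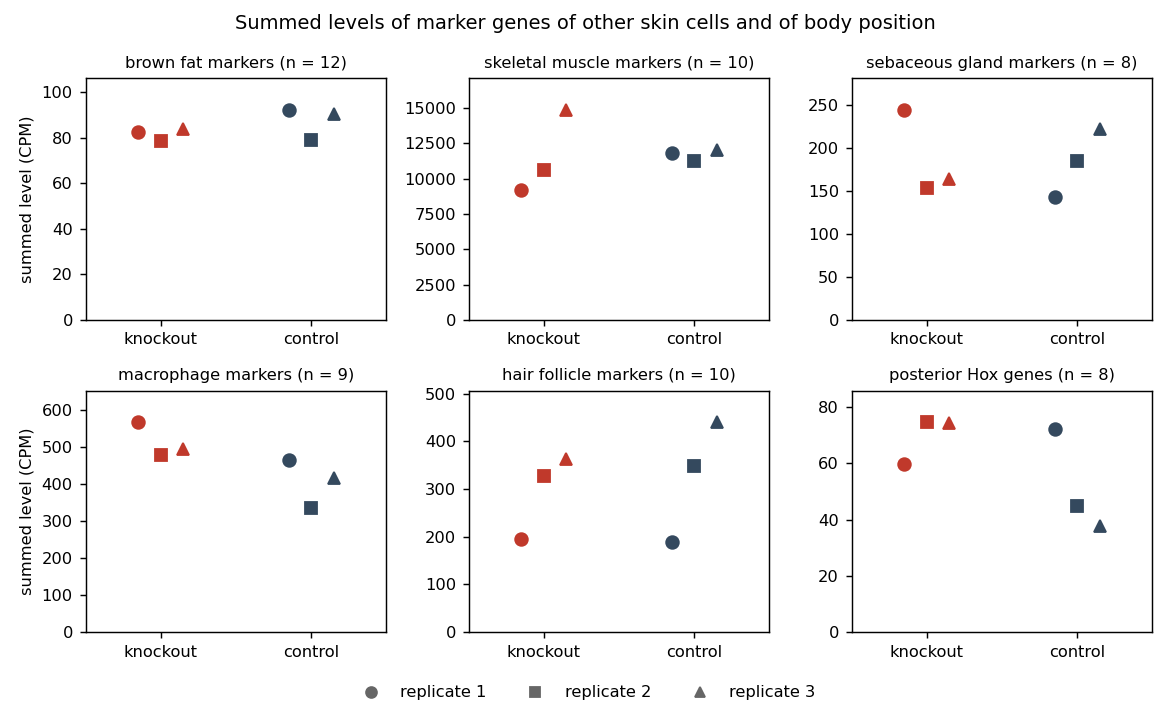
Summed level of marker genes of 5 other cell types and of posterior Hox genes (vertical axes, CPM, from 0) in the knockout libraries (red, left) and the control libraries (dark, right), with a marker shape per replicate number. Hair follicle markers are low in replicate 1 of both groups, the macrophage sum is higher in the knockout libraries, and the summed Hox level of control 1 lies among those of the knockout.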

How the data were processed

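Skin RNA of 3 Tie1 knockout and 3 control samples was measured by RNA-seq, and groups and replicate numbers come from the sample titles. Per the file headers, the authors deposited 1 estimated count (expected read count) per gene and library, which was not normalized: totals differ, and in each library 31.0 to 31.9% of values lie more than 0.001 from a whole number. RSEM 1.2.12, Bowtie2 2.2.5, HISAT2 2.0.4 and GRCm38.p6 are listed, without roles, per the submitters' processing notes, and whether counting used strand was not given in these sources. Such estimates share reads between similar sequences by a model.

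The estimated counts were rounded, filtered with filterByExpr (minimum count 10), scaled by TMM and compared with edgeR 4.0.16 (robust quasi-likelihood fit, R 4.3.3), genotype being the only term, with Benjamini-Hochberg adjustment over the 15035 genes left. The standard error is the absolute log2 fold change divided by the square root of F. Levels are CPM on TMM-scaled library sizes. Intervals of read ratios are exact (Clopper-Pearson, 95%) and, like the floor of 3 reads, cover counting error only, since PCR copies without molecular identifiers are not independent. Exon lengths are merged GENCODE vM21 exons (GRCm38), and gene coordinates and promoters are from RefSeq (GRCm38.p6, 1-based). DESeq2 1.42.0, limma-voom (limma 3.58.1), RLE and upper-quartile scaling, other filters, a fit that was not robust, a prior count of 0.5, the replicate number as a block, 4 marker scores as covariates and left-out libraries were alternatives. The fits were tested on simulated data. Chi-square per degree of freedom between pairs of libraries was 9.89 to 49.3, so none was a duplicate.

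The 10 genes and all lists were chosen with earlier results of these data known. Named genes are Tie1, the 10 genes, from each list the called genes and up to 4 with the smallest p, and the 12 genes most like the set in pattern with a mean of at least 1 CPM. For the lists of other cells, summed levels are given in place of single genes. Retn, Adig, Acsl1, Slc1a5, Ucp1, Fgb, Emcn, Mrc1, Hoxa10, Hoxa11 and the genes named under other observations were added after their values were seen. Plin2 was not analysed here.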

Additional observations from a re-analysis of the deposited data

How the results depend on the processing

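The number of genes called was 24 and within 1.5 times of it with RLE scaling, upper-quartile scaling, a minimum of 1 CPM in 3 libraries, a fit that was not robust and a prior count of 0.5. It was 38 without a filter, 207 with DESeq2, 15 with limma-voom, 3 with the posterior Hox score, 15 with the muscle score, 1 with the brown fat score, 114 with the hair follicle score and 139 without knockout 1 and control 1, and ranged from 1 to 11 with 1 library left out. Of the white adipocyte genes, 4 were called with DESeq2 (Plin1, Adipoq, Pparg and Acvr1c), and 0 with limma-voom, with the Hox, muscle or brown fat score, and with any 1 library left out. The cause was not tested, and with a library left out fewer samples entered. Plin1, Adipoq, Acvr1c, Pparg and Car3 were below 0 in every alternative that gave a value, while Cebpa was above 0 with the Hox score (0.24), the brown fat score (0.020) and without knockout 2 (0.065), control 2 (0.052) or control 3 (0.014), and Plin4 without knockout 1 (0.034). With 1 library left out Cebpa ranged from −0.11 to 0.065 and Plin4 from −0.69 to 0.034. Alternatives for Agt and Acsl1 were chosen after seeing the data: Agt was below 0 in all 20 and called in 11, and Acsl1 was above 0 with the Hox score (0.11) and ranged from −0.51 to 0.090 with 1 library left out, above 0 without knockout 2 (0.090) or knockout 3 (0.036).

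Same-numbered libraries do not share a stated embryo, litter or day. Their deviations from the group means correlated at 0.41, 0.043 and 0.27 for numbers 1, 2 and 3, and knockout 2 correlated best with control 3 (0.18), so the numbers were not taken as pairs. With the replicate number as a block, 52 genes and 2 of the white adipocyte genes were called, Plin1 and Adipoq, whose adjusted p by edgeR was 0.00602 for both. Cidec, Lep and Cfd were tested by edgeR only without a filter, where none was called (adjusted p = 0.754, 0.432 and 0.708), and Acvr1c had no value under the minimum of 1 CPM. For Cidec, Lep and Cfd read depth limits the comparison.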

Other observations

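Knockout 1 and control 1 also stood apart in genes of epidermal maturation, which the comparisons above do not use, with some genes high and others low. Hrnr, hornerin of the cornified layer, was at 7837, 2395 and 1603 CPM in knockout libraries 1, 2 and 3, against 3670, 1750 and 1108 CPM in control libraries 1, 2 and 3. Lor, loricrin, was at 5058, 2464 and 1872 CPM in the knockout libraries, against 2540, 1942 and 1529 CPM in the controls, and Ivl, involucrin, was also highest in replicate 1 of both groups. Flg, filaggrin, was lowest there, at 504, 2004 and 2024 CPM in the knockout libraries, against 1450, 2194 and 1980 CPM in the controls. Tgm3, a transglutaminase, was lowest there too, at 44.6, 48.2 and 75.0 CPM in the knockout libraries, against 47.4, 110 and 81.5 CPM in the controls. Far2, a fatty alcohol enzyme listed here as a sebaceous marker, was at 170, 21.8 and 17.4 CPM in the knockout libraries, against 56.8, 16.5 and 11.9 CPM in the controls. The hair keratin gene Krt25 was low in replicate 1, at 0.21, 12.5 and 23.8 CPM in the knockout libraries, against 0.74, 12.6 and 44.8 CPM in the controls. None of these 7 genes passed edgeR's test between the groups (adjusted p between 0.766 and 0.942). The low value of Plin4 in knockout 1 and the high values of Adipoq and Car3 in control 1 fall in the same libraries, and the relation was not tested.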
